A study of Mus musculus with 6 samples.

Results

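The genes described here are 10 immediate early genes of the mouse, Fos, Fosb, Jun, Junb, Egr1, Nr4a1, Atf3, Ier2, Dusp1 and Btg2, out of 32286 genes counted. They were chosen by name, and their raw unique molecular identifiers (UMIs, each standing for 1 captured RNA molecule) were summed by library in each immune lineage. The study measured single-cell 3′ RNA with surface antibody tags in immune cells of mouse livers, under the title of bile acid synthesis and tumor-specific T cell responses in liver cancer. Livers of the AAV-sgBaat group had received adeno-associated virus with a guide against Baat, the hepatocyte enzyme that conjugates bile acids to glycine or taurine. Livers of the AAV-sgSCR group had received the virus with a guide labelled SCR, called the control. Livers of the mock group were mock infected and are called naive in the design text. All 3 groups are described there as tumor bearing and were taken at day 30 after infection, although the mock sample is titled native liver. Each group is 1 mRNA library, and each library is a pool of 3 tumor samples. All livers were digested with type IV collagenase and DNase, passed over percoll and freed of red cells, and T cells (CD45hi CD3+) and the remaining CD45hi cells were sorted before capture. The tumor model, the source of the nuclease, and the strain, age and sex of the mice were not given in the sources used here. With 1 library per group no test could be run and no p-value is given. Intervals are exact 95% intervals of counting error only, and they leave out differences between mice, dissociations and captures.

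Immediate early genes are transcribed within minutes of a stimulus, without new protein synthesis, from promoters already occupied by factors such as SRF with its ternary complex partners and CREB. Fos and Jun proteins pair through leucine zippers to form the AP-1 transcription factor, and Dusp1 and Btg2 products limit the response they are part of. In T cells antigen receptor and costimulatory signals induce them, and in myeloid cells microbial products and cytokines do. Enzymatic tissue dissociation is also known to induce the same genes, together with heat shock genes, in cells of many tissues. With 1 library per group, a response to handling and a response to the treatment cannot be told apart in any comparison below.

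The proximal promoters show what several of these genes share in sequence. RefSeq promoter windows (GRCm38.p6, 250 bases before to 50 after the table's start site) were held for 8 of the 10 genes, all but Egr1 and Ier2. TGACG, the core of the cAMP response element bound by CREB and ATF factors, stood on at least 1 strand in 7 of the 8 windows, all but that of Jun, against 20.8% of 32851 mouse promoter windows. The full palindrome TGACGTCA, which contains TGACG, was in 2 windows, those of Dusp1 and Btg2, against 1.79% of all windows. The AP-1 site TGANTCA, read on both strands like the others, was in 0 of the 8, against 7.81% of all windows. The CArG box of SRF was in 0 of the 8, against 1.63% of all windows, and these windows end before distal elements. The 170 bases before the start site are shown for 4 genes whose levels the results turn on, Fos at chr12:85473720-85473889 on the plus strand, Fosb at chr7:19310046-19310215 on the minus strand, Junb at chr8:84978749-84978918 on the minus strand and Nr4a1 at chr15:101266676-101266845 on the plus strand. The Nr4a1 window lies inside the span given for the gene, 101253902 to 101274795, so the sequence before the start of that span was not read. Capitals mark TGACG or its reverse complement CGTCA.
Fos: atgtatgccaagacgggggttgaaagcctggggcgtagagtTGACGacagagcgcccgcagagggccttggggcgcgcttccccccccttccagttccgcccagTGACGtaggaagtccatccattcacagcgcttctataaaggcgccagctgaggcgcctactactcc
Fosb: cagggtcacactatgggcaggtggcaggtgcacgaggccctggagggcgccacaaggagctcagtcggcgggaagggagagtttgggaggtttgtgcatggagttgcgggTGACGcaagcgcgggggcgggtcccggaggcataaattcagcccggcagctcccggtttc
Junb: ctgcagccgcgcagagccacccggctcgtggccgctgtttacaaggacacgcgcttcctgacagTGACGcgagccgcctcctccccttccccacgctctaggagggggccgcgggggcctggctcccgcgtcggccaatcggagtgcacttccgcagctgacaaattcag
Nr4a1: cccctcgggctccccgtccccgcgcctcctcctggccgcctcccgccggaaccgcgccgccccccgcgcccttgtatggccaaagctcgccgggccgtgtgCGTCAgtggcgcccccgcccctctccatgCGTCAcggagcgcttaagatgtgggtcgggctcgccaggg
Such a match describes the letters and does not show that a factor binds there.

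The libraries held 48359443 gene UMIs over 9386 barcodes in AAV-sgBaat, 62570529 over 8073 in AAV-sgSCR, and 32005400 over 6431 in mock. Barcodes with at least 500 genes, at least 1000 gene UMIs and at most 10% mitochondrial UMIs numbered 7094, 7332 and 6068 in AAV-sgBaat, AAV-sgSCR and mock. Lineages were called from marker UMIs, and barcodes with markers of several lineages were left out, 29.98% of those that passed in AAV-sgBaat, 19.6% in AAV-sgSCR and 7.84% in mock. The libraries shared 10 to 25 barcode sequences per pair. Baat itself had 1 UMI in AAV-sgBaat, 16 in AAV-sgSCR and 7 in mock over all barcodes. A hepatocyte gene read from the 3′ end of RNA in sorted immune cells does not show whether it was edited. CD8 T cells numbered 735, 1743 and 554 barcodes in AAV-sgBaat, AAV-sgSCR and mock, NK and ILC1 cells 229, 260 and 536, B cells 186, 300 and 2469, and neutrophils 267, 575 and 11. B cells with at least 3 Vpreb3 UMIs are a class of their own, apart from precursor B cells, which were called from Vpreb1, Igll1, Rag1 and Dntt. Levels are given as UMIs per 1000000 gene UMIs of the lineage (CPM), a share of captured RNA that carries no measure of RNA per cell. Neutrophil calprotectin RNA (S100a8 and S100a9) stood at 273, 403 and 2.25 CPM in CD8 T cells of AAV-sgBaat, AAV-sgSCR and mock, and the mitochondrial share at 2.79%, 4.47% and 4.28%, and their part in the differences below was not tested. Lineages of at least 50 barcodes in a library get a level, and the comparisons use lineages of at least 100 barcodes in both libraries, which are 9 for AAV-sgBaat over AAV-sgSCR, 6 for AAV-sgBaat over mock and 7 for AAV-sgSCR over mock. No lineage here is known to lack these genes, so the part of their UMIs that came from free RNA was not measured. Levels are compared between libraries and lineages for 1 gene at a time, and not between genes.

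Summed over the 10 genes, the level ranged widely between lineages, and mature granulocytes and monocytes stood above the lymphocytes. In AAV-sgBaat it was highest in basophils and mast cells, at 15320.5 (14977 to 15669.9) CPM, which carry Mcpt8 and Cpa3. Neutrophils at 8913 (8717 to 9112) and patrolling monocytes at 8849 (8564 to 9142) CPM followed, with overlapping intervals. Classical monocytes had 7907 CPM, C1q macrophages 6418, NK and ILC1 cells 6009 and B cells 5297 CPM. At the low end stood CD8 T cells at 2898, precursor B cells at 1792 and Dntt or Arpp21 positive immature T cells at 1152 CPM, so the lineages spanned more than 10-fold. In AAV-sgSCR neutrophils led at 9961 (9839.5 to 10084) CPM, then patrolling monocytes at 8251, C1q macrophages at 6831 and classical monocytes at 6488 CPM. In that library NK and ILC1 cells had 5153, B cells 4389 and CD8 T cells 2538 CPM, and immature T cells were again lowest at 954 CPM. The mock library held 73 classical monocytes, at 8819.97 (8598 to 9046) CPM, and too few neutrophils and basophils for a level. Its NK and ILC1 cells stood at 8447, its gamma-delta T cells at 7874, its other T cells at 6694 and its B cells at 6619 CPM, the last 2 not separated by counting error. CD8 T cells were lowest of these in mock too, at 3628 CPM. Other T cells are the T cells left outside the CD8, CD4, Foxp3, Trdc and immature classes. They include barcodes with both CD8 and CD4 UMIs, or with fewer Trdc or immature marker UMIs than the minimum. Dntt and Arpp21 together had 82.7 CPM in other T cells of AAV-sgBaat, 4.36 in AAV-sgSCR and 1.84 in mock.

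**Figure D1:**
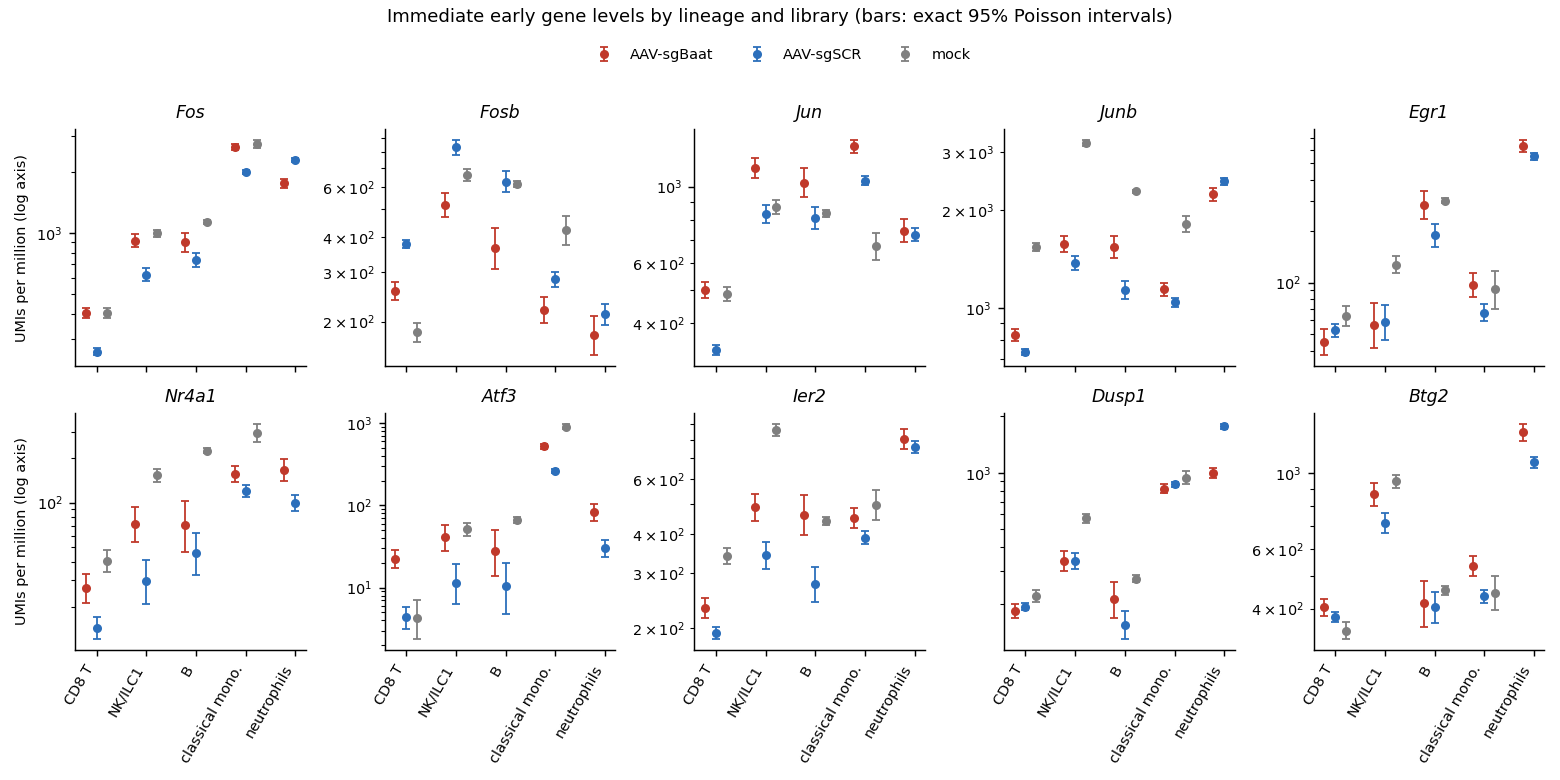
Level of each of the 10 genes in CPM (log axes, each panel with its own range) in CD8 T cells, NK and ILC1 cells, B cells, classical monocytes and neutrophils, with AAV-sgBaat, AAV-sgSCR and mock points side by side and exact 95% Poisson intervals as bars; mock has no neutrophil point. Fos in CD8 T cells is at 403, 259.7 and 403 CPM in AAV-sgBaat, AAV-sgSCR and mock, while Fosb is at 257, 376 and 183.

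Fos and Fosb, 2 paralogous AP-1 subunits that pair with Jun proteins, were displaced in opposite directions between AAV-sgBaat and AAV-sgSCR. Fos (ENSMUSG00000021250, chromosome 12, 85473890 to 85477274, GRCm38.p6) had 403 CPM in AAV-sgBaat, 259.7 in AAV-sgSCR and 403 in mock CD8 T cells. In NK and ILC1 cells Fos had 917 CPM in AAV-sgBaat, 623 in AAV-sgSCR and 996 in mock. AAV-sgSCR was thus the lowest of the 3 libraries in both lineages, and AAV-sgBaat and mock had the same level in CD8 T cells as a whole. The make-up of CD8 T cells by CD90 allele differed between the libraries, as given below. The log2 ratio of Fos in AAV-sgBaat over AAV-sgSCR was 0.63 (0.53 to 0.73) in CD8 T cells, 0.56 (0.41 to 0.71) in NK and ILC1 cells and 0.70 (0.52 to 0.88) in plasmacytoid dendritic cells, the type I interferon producers. Fos was higher in AAV-sgBaat in 7 of 9 lineages and lower in 2, neutrophils and immature neutrophils, and the interval left out 0 in all 9. Other T cells gave the smallest difference, 0.20 (0.07 to 0.33), which turned to -0.14 in barcodes without an Hspa1a or Hspa1b UMI. In Vpreb3 B cells Fos was at 0.503 (0.24 to 0.76), and at -0.50 under a stricter filter on barcodes (at least 1000 genes and 2000 UMIs, at most 5% mitochondrial). Fosb (ENSMUSG00000003545, chromosome 7, 19302696 to 19310118) had 257 CPM in AAV-sgBaat, 376 in AAV-sgSCR and 183 in mock CD8 T cells, and 518 CPM in AAV-sgBaat, 829.9 in AAV-sgSCR and 664 in mock NK and ILC1 cells. Here AAV-sgSCR was the highest library in both lineages. Fosb was lower in AAV-sgBaat in 8 of 9 lineages, with the interval below 0 in 7. Its log2 ratio of AAV-sgBaat over AAV-sgSCR was -0.80 (-0.96 to -0.64) in other T cells, -0.79 (-1.06 to -0.52) in B cells and -0.55 (-0.66 to -0.43) in CD8 T cells, against 0.05 (-0.25 to 0.35) in plasmacytoid dendritic cells. Neutrophils, at 179 CPM in AAV-sgBaat, against 213 in AAV-sgSCR, had an interval that included 0.

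The balance of the 2 paralogues within a lineage does not depend on the scaling of the library, since both are read from the same barcodes. Fos made up 61.0% (58.8 to 63.2) of Fos and Fosb UMIs in AAV-sgBaat CD8 T cells, 40.9% (39.6 to 42.1) in AAV-sgSCR and 68.7% (66.7 to 70.7) in mock. The share was 63.9%, 42.9% and 59.99% in NK and ILC1 cells, 71.1%, 53.9% and 64.8% in B cells, and 67.0%, 50.4% and 58.2% in other T cells, in the order AAV-sgBaat, AAV-sgSCR and mock. In each of these 4 lymphoid lineages AAV-sgSCR had the lowest share of the 3 libraries, by intervals that did not meet those of AAV-sgBaat. CD4 T cells had 69.5%, 48.7% and 63.6% in the same order, and Vpreb3 B cells 71.7%, 57.0% and 63.3%. Classical monocytes differed less, with 92.3% (91.5 to 93.1) in AAV-sgBaat, 87.6% (86.9 to 88.2) in AAV-sgSCR and 86.7% (85.1 to 88.1) in mock. Neutrophils had 90.7% (89.3 to 92.1) in AAV-sgBaat, against 91.5% (90.8 to 92.1) in AAV-sgSCR, with intervals that met. Basophils and mast cells had 58.9% (56.7 to 61.2) in AAV-sgBaat, against 43.6% (41.6 to 45.6) in AAV-sgSCR. Plasmacytoid dendritic cells had 76.6%, 67.7% and 65.4% in AAV-sgBaat, AAV-sgSCR and mock. In these and in classical monocytes mock was lowest, with an interval that met that of AAV-sgSCR. Between AAV-sgBaat and AAV-sgSCR the balance thus differed in lymphocytes, monocytes, plasmacytoid dendritic cells and basophils and mast cells. It did not in neutrophils, and the difference between lineages was not tested.

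**Figure D2:**
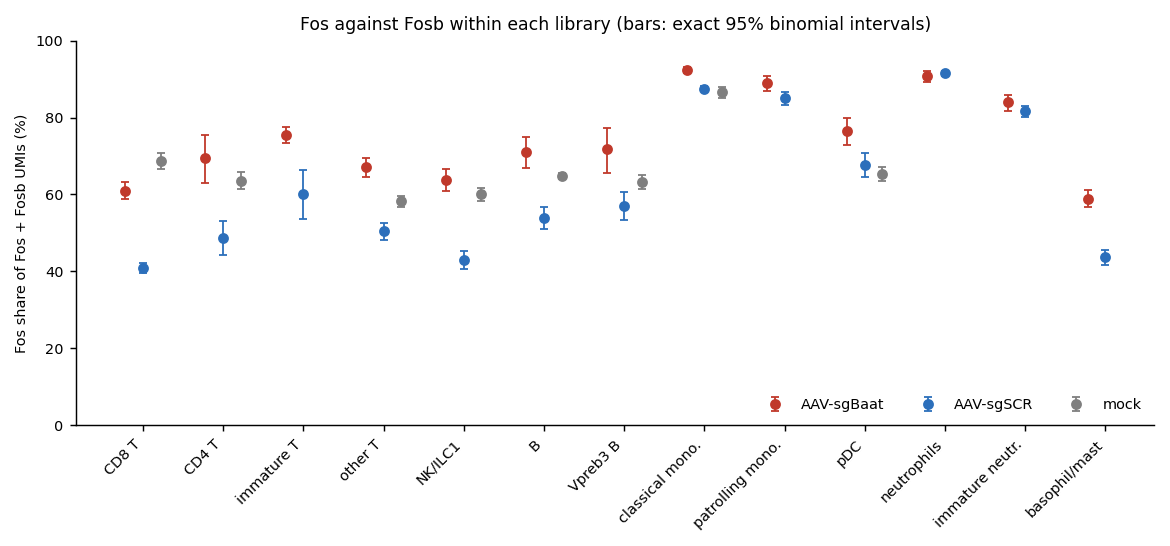
Share of Fos among Fos and Fosb UMIs, in percent from 0 to 100, by lineage and library, with exact 95% binomial intervals as bars. CD8 T cells lie at 61.0%, 40.9% and 68.7% in AAV-sgBaat, AAV-sgSCR and mock, while neutrophils lie at 90.7% and 91.5% in AAV-sgBaat and AAV-sgSCR.

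Jun (ENSMUSG00000052684, chromosome 4, 95049036 to 95052222) encodes the main dimer partner of Fos proteins. Jun had 499.8 CPM in AAV-sgBaat, 334 in AAV-sgSCR and 488 in mock CD8 T cells, and 1135 CPM in AAV-sgBaat, 834 in AAV-sgSCR and 872 in mock NK and ILC1 cells. AAV-sgBaat was the highest library in NK and ILC1 cells, and AAV-sgSCR the lowest in CD8 T cells. Jun was higher in AAV-sgBaat than AAV-sgSCR in 7 of 9 lineages, by a log2 ratio of 0.58 (0.49 to 0.67) in CD8 T cells and 0.48 (0.29 to 0.67) in Vpreb3 B cells, and lower in immature neutrophils at -0.12 (-0.21 to -0.03). Other T cells were at -0.03 (-0.15 to 0.09), with 0 inside the interval. Junb (ENSMUSG00000052837, chromosome 8, 84976909 to 84978748), a Jun family member that is a weaker activator and opposes some actions of Jun, had 828 CPM in AAV-sgBaat, 734 in AAV-sgSCR and 1541 in mock CD8 T cells. B cells had 1539.8 CPM in AAV-sgBaat, 1135 in AAV-sgSCR and 2278 in mock, and NK and ILC1 cells 1577 CPM in AAV-sgBaat, 1372 in AAV-sgSCR and 3203 in mock. Mock was the highest library for Junb in all 3 lineages by a wide gap. Between AAV-sgBaat and AAV-sgSCR the differences were small, from -0.35 (-0.49 to -0.22) in immature neutrophils to 0.46 (0.14 to 0.78) in plasmacytoid dendritic cells, with 6 of 9 lineages higher. Junb made up 62.3% (60.8 to 63.9) of Junb and Jun UMIs in AAV-sgBaat CD8 T cells, 68.7% (67.8 to 69.6) in AAV-sgSCR and 75.9% (74.9 to 76.9) in mock. In NK and ILC1 cells the share was 58.2%, 62.2% and 78.6%, in B cells 59.98%, 58.3% and 73.1%, and in classical monocytes 46.6%, 50.02% and 73.0%, in the order AAV-sgBaat, AAV-sgSCR and mock. Mock had the largest Junb share in each of these 4 lineages.

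Egr1 and Nr4a1 report antigen receptor signalling in lymphocytes, Egr1 as a zinc finger factor downstream of the MAP kinase ERK and Nr4a1 as an orphan nuclear receptor (Nur77). Egr1 (ENSMUSG00000038418, chromosome 18, 34861207 to 34864956) had 44.9 CPM in AAV-sgBaat, 52.6 in AAV-sgSCR and 64.0 in mock CD8 T cells, and 286 CPM in AAV-sgBaat, 189 in AAV-sgSCR and 303 in mock B cells. Mock was highest in CD8 T cells, and AAV-sgSCR was lowest in B cells. The log2 ratio of AAV-sgBaat over AAV-sgSCR was 1.62 (1.07 to 2.16) in Vpreb3 B cells, 1.22 (0.46 to 1.97) in plasmacytoid dendritic cells, 0.60 (0.24 to 0.95) in B cells and 0.54 (0.24 to 0.83) in classical monocytes. In CD8 T cells it was -0.23 (-0.52 to 0.05), in other T cells -0.05 (-0.51 to 0.40) and in NK and ILC1 cells -0.06 (-0.64 to 0.499), each with 0 inside the interval. Nr4a1 (ENSMUSG00000023034, chromosome 15, 101253902 to 101274795) had 26.5 CPM in AAV-sgBaat, 14.4 in AAV-sgSCR and 40.6 in mock CD8 T cells, from 78, 139 and 144 UMIs. NK and ILC1 cells had 72.0 CPM in AAV-sgBaat, 29.6 in AAV-sgSCR and 152 in mock, and classical monocytes 157 CPM in AAV-sgBaat, 119 in AAV-sgSCR and 294 in mock. In these lineages mock was highest, AAV-sgBaat next and AAV-sgSCR lowest. Nr4a1 was higher in AAV-sgBaat than AAV-sgSCR in 8 of the 8 lineages with at least 20 UMIs over both libraries, with the interval above 0 in 6. The log2 ratio was 1.29 (0.66 to 1.93) in NK and ILC1 cells, 1.13 (-0.22 to 2.47) in plasmacytoid dendritic cells and 0.88 (0.46 to 1.29) in CD8 T cells. In classical monocytes it was 0.39 (0.17 to 0.62), and -0.39 at 2500 to 5000 UMIs. In B cells it was 0.62 (-0.13 to 1.36), and as in plasmacytoid dendritic cells the interval included 0.

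Atf3 (ENSMUSG00000026628, chromosome 1, 191170296 to 191183333), a stress-induced member of the ATF and CREB family that often represses its targets, was sparse in lymphocytes and had the widest ratios. It had 22.4 CPM in AAV-sgBaat, 4.34 in AAV-sgSCR and 4.23 in mock CD8 T cells, from 66, 42 and 15 UMIs. Other T cells had 42.4 CPM in AAV-sgBaat, 3.27 in AAV-sgSCR and 21.3 in mock, and classical monocytes 519.6 CPM in AAV-sgBaat, 259 in AAV-sgSCR and 904 in mock. AAV-sgBaat was above AAV-sgSCR in all 3, and mock was highest in monocytes and not in these T cell classes. Mock was also highest in NK and ILC1 cells, at 51.2 CPM against 41.2 in AAV-sgBaat and 11.5 in AAV-sgSCR. The same held in B cells, at 66.4 CPM in mock, 27.6 in AAV-sgBaat and 10.5 in AAV-sgSCR. The log2 ratio of AAV-sgBaat over AAV-sgSCR was 2.37 (1.79 to 2.96) in CD8 T cells, 3.70 (2.49 to 5.20) in other T cells, 1.01 (0.87 to 1.14) in classical monocytes and 1.46 (0.98 to 1.94) in neutrophils. Atf3 was at least 2-fold higher in 7 of the 8 lineages with 20 UMIs, Vpreb3 B cells being the exception at -0.85 (-2.83 to 0.69). Its values moved with the choice of barcodes, being -0.02 in B cells and 0.91 in CD8 T cells with mixed-lineage barcodes kept, and -0.96 in immature neutrophils under the stricter filter. In CD8 T cells and other T cells, barcodes with Atf3 more often carried macrophage RNA, except in mock other T cells. Of 39 AAV-sgBaat CD8 barcodes with an Atf3 UMI, 23 (59.0%) also had a UMI of the monocyte and macrophage panel, against 115 of 696 (16.5%) without one. Their Apoe level was 2376 CPM against 179.5, and their Lyz2 level 1079 against 183 CPM. In AAV-sgBaat other T cells the shares with a panel UMI were 69.8% with and 24.8% without Atf3. In AAV-sgSCR they were 28% and 13.9% in CD8 T cells and 40% and 12.1% in other T cells, from 25 and 5 barcodes with Atf3. Mock CD8 T cells had 22.2% and 7.89%, from 9 barcodes with Atf3. In mock other T cells the shares lay the other way, at 4% and 10.9%. Among CD8 T cells with no panel UMI, Atf3 had 10.5 CPM in AAV-sgBaat, 3.09 in AAV-sgSCR and 3.98 in mock. In other T cells with no panel UMI the values were 15.4, 2.48 and 23.8 CPM in that order. Leaving those barcodes out therefore lowered Atf3 in AAV-sgBaat and kept it above AAV-sgSCR. In other T cells mock was then the highest library, with an interval that met that of AAV-sgBaat. The part of the remaining macrophage RNA in the Atf3 values was not tested.

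Ier2, Dusp1 and Btg2 encode a nuclear early response protein, a dual-specificity phosphatase that switches MAP kinases off, and an antiproliferative regulator of mRNA decay. Ier2 (ENSMUSG00000053560, chromosome 8, 84661331 to 84662852) had 232 CPM in AAV-sgBaat, 193 in AAV-sgSCR and 340.4 in mock CD8 T cells, and 459.7 CPM in AAV-sgBaat, 276 in AAV-sgSCR and 441 in mock B cells. It was higher in AAV-sgBaat than AAV-sgSCR in 9 of 9 lineages, with the interval above 0 in 6. The log2 ratio reached 0.96 (0.55 to 1.37) in Vpreb3 B cells and 0.74 (0.45 to 1.02) in B cells (-0.90 under the stricter filter, with 27 AAV-sgBaat and 55 AAV-sgSCR barcodes), against 0.02 (-0.08 to 0.13) in immature neutrophils. Btg2 (ENSMUSG00000020423, chromosome 1, 134074865 to 134079155) had 404 CPM in AAV-sgBaat, 378 in AAV-sgSCR and 345 in mock CD8 T cells, with AAV-sgBaat highest and mock lowest. Its log2 ratio of AAV-sgBaat over AAV-sgSCR was positive in 9 of 9 lineages, from 0.04 (-0.24 to 0.31) in B cells to 0.56 (0.36 to 0.76) in Vpreb3 B cells. In CD8 T cells that of Btg2 was 0.10 (0.0018 to 0.19), and it turned to -0.03 under the stricter filter. Dusp1 (ENSMUSG00000024190, chromosome 17, 26505591 to 26508472) went both ways. CD8 T cells had 182 CPM in AAV-sgBaat, 192 in AAV-sgSCR and 219 in mock, a difference of AAV-sgBaat over AAV-sgSCR of -0.08 (-0.22 to 0.06) on the log2 scale. Neutrophils had 998 CPM in AAV-sgBaat, against 1774 in AAV-sgSCR, or -0.83 (-0.94 to -0.73), while Vpreb3 B cells gave 0.91 (0.35 to 1.45), which turned to -0.64 under the stricter filter. Dusp1 was lower in 6 of 9 lineages and higher in 3, with intervals clear of 0 in 3 and 2.

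Few of these differences passed 2-fold. In CD8 T cells AAV-sgBaat over AAV-sgSCR had 1 of 10 genes at least 2-fold higher and 0 at least 2-fold lower, against 2.7% and 4.56% of all 10868 genes with 20 UMIs, the 1 gene being Atf3. In NK and ILC1 cells there were 2 of 10 higher and 0 lower, against 1.4% and 3.06% of all genes, the 2 being Nr4a1 and Atf3. B cells had 1 of 10 higher and 0 lower, against 1.5% and 5.39% of all genes, the 1 being Atf3 with 11 UMIs in AAV-sgBaat, against 9 in AAV-sgSCR. Other T cells had 1 of 10 higher and 0 lower, against 6.69% and 3.81% of all genes, so the share higher there was near that of all genes. Vpreb3 B cells had 1 of 9 higher and 0 lower, against 2.47% and 5.82% of all genes, the 1 being Egr1. Plasmacytoid dendritic cells had 2 of 9 higher and 0 lower, against 1.18% and 5.91% of all genes, the 2 being Egr1 and Nr4a1. In the remaining 3 lineages the 1 gene was Atf3 again. Classical monocytes had 1 of 10 higher and 0 lower, against 1.35% and 4.14% of all genes. Neutrophils had 1 of 10 higher and 0 lower, against 2.87% and 8.01% of all genes. Immature neutrophils had 1 of 10 higher and 0 lower, against 2.98% and 2.83% of all genes. No member was at least 2-fold lower in any of the 9 lineages. Their median log2 ratio was 0.22 against -0.05 for all genes in CD8 T cells, 0.36 against -0.0039 in NK and ILC1 cells, 0.45 against -0.07 in B cells and 0.32 against -0.07 in classical monocytes. The median was 0.07 against 0.03 in other T cells and -0.05 against -0.09 in immature neutrophils, near that of all genes in both. The summed level was higher in 6 of the 9 lineages and lower in 3. It gave log2 ratios of 0.19 (0.16 to 0.23) in CD8 T cells, 0.22 (0.17 to 0.28) in NK and ILC1 cells, 0.27 (0.19 to 0.35) in B cells and 0.47 (0.38 to 0.55) in plasmacytoid dendritic cells. The 3 lower were other T cells at -0.04 (-0.09 to 0.01), an interval that holds 0, neutrophils at -0.16 (-0.20 to -0.12) and immature neutrophils at -0.15 (-0.19 to -0.11). The B cell difference turned to -0.08 under the stricter filter, and that of Vpreb3 B cells, 0.496 (0.40 to 0.59), was -0.0045 at 2500 to 5000 UMIs, where AAV-sgBaat had 31 and AAV-sgSCR 162 barcodes.

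**Figure D3:**
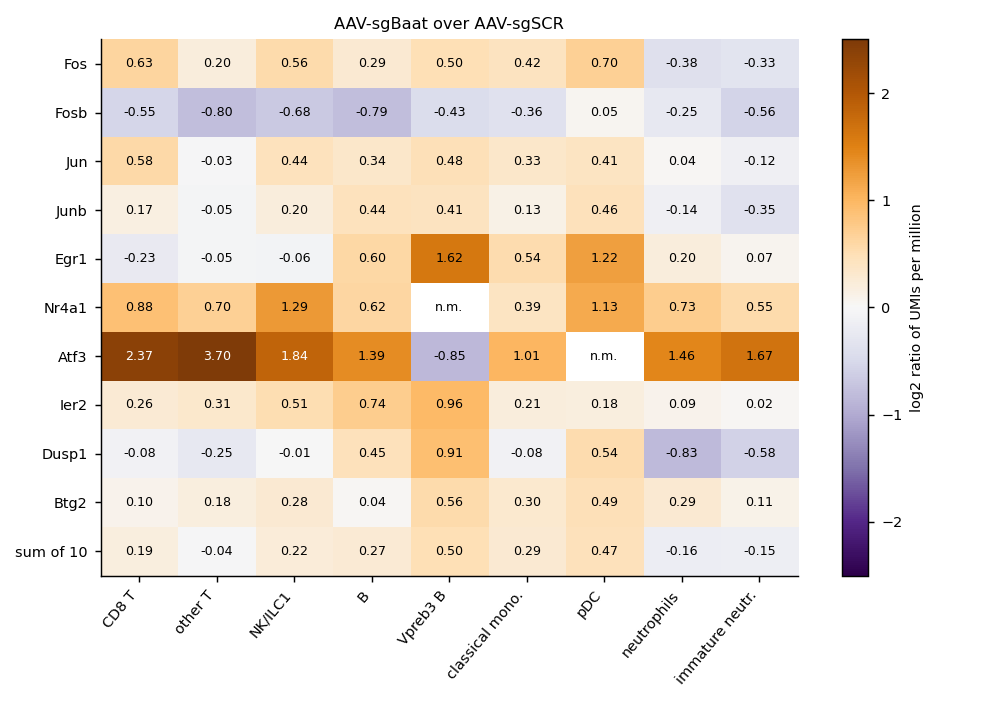
Log2 ratio of CPM in AAV-sgBaat over AAV-sgSCR for each of the 10 genes and their sum (rows) in the 9 lineages of at least 100 barcodes in both libraries (columns); colours saturate at 2.5 either way, and n.m. marks under 20 UMIs over both libraries. The Fos row is positive except in both neutrophil classes, the Fosb row is negative except in plasmacytoid dendritic cells at 0.05, and the Nr4a1, Ier2 and Btg2 rows are positive in every measured column.

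Other genes of the response, and the pathways upstream, were counted as lists. The median of all genes in CD8 T cells is given above, and the counts below are not set against the share of all genes higher or lower. In CD8 T cells, of the other immediate early and early response genes, 13 of 23 measured genes were higher and 10 lower (median log2 ratio 0.13) in AAV-sgBaat than AAV-sgSCR. The log2 ratio was 1.76 (1.25 to 2.28) for Ier3, a survival regulator, 0.64 (0.498 to 0.79) for Zfp36 (tristetraprolin, which destabilises cytokine mRNAs) and 0.13 (-0.01 to 0.26) for Nfkbia, the NF-kappa-B inhibitor. It was -0.39 (-0.58 to -0.20) for Nr4a2, a paralogue of Nr4a1 that is induced with it, -0.52 (-1.26 to 0.15) for Nr4a3, -0.21 (-0.32 to -0.11) for Klf6 and -0.20 (-0.26 to -0.15) for Jund. Nr4a1 and Nr4a2 thus lay on opposite sides of 0. Of the MAP kinase, SRF and CREB pathway genes, 2 of 15 measured genes were higher and 13 lower (median log2 ratio -0.12). That median lay near that of all genes, and Srf itself was at 0.24 (-0.51 to 0.95). Among feedback phosphatases 2 of 5 measured genes were higher and 3 lower (median log2 ratio -0.32), with Dusp2 at -0.70 (-0.83 to -0.58), and among AP-1 partners 2 of 5 measured genes were higher and 3 lower (median log2 ratio -0.02). Among T cell activation genes 5 of 12 measured genes were higher and 7 lower (median log2 ratio -0.28), with Cd69 at 0.25 (0.15 to 0.36). The heat shock genes were the exception, since 10 of 10 measured genes were higher and 0 lower (median log2 ratio 0.73).

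Against mock both virus libraries were lower in the summed level, and Junb and Nr4a1 were lower by their intervals in every lineage compared. These comparisons share the mock library, and the 2 sets of ratios are therefore not independent. The summed level was 2898 CPM in AAV-sgBaat, 2538 in AAV-sgSCR and 3628 in mock CD8 T cells, and 5297 CPM in AAV-sgBaat, 4389 in AAV-sgSCR and 6619 in mock B cells. Its log2 ratio over mock ran from -0.79 to -0.32 in 6 lineages of AAV-sgBaat and from -1.26 to -0.52 in 7 lineages of AAV-sgSCR, lower in all with intervals below 0. The AAV-sgBaat CD8 value, -0.32 (-0.36 to -0.28), was 0.03 with mixed-lineage barcodes kept. Junb was lower than mock in 6 of 6 AAV-sgBaat lineages, 4 of them at least 2-fold, with -0.90 (-0.97 to -0.83) in CD8 T cells and -1.51 (-1.72 to -1.30) in Vpreb3 B cells. In AAV-sgSCR Junb was at least 2-fold lower than mock in 7 of 7 lineages, from -1.92 (-2.06 to -1.79) in Vpreb3 B cells to -1.004 (-1.10 to -0.91) in B cells. Nr4a1 was likewise lower in 6 of 6 and 7 of 7. In B cells Nr4a1 had 70.3 CPM in AAV-sgBaat, 45.6 in AAV-sgSCR and 224 in mock, log2 ratios over mock of -1.67 (-2.26 to -1.13) for AAV-sgBaat and -2.29 (-2.79 to -1.84) for AAV-sgSCR. In Vpreb3 B cells it had 7, 3 and 333 UMIs in AAV-sgBaat, AAV-sgSCR and mock. CD4 T cells, measured for AAV-sgSCR only, gave -2.88 (-4.21 to -1.80) for Nr4a1 and -1.18 (-1.30 to -1.07) for Junb. Mock was the highest library for both genes in each of these lineages. Egr1 and Dusp1 were also below mock in 6 of 6 AAV-sgBaat and 7 of 7 AAV-sgSCR lineages, Egr1 at -2.14 (-2.70 to -1.63) and -3.36 (-3.94 to -2.83) in plasmacytoid dendritic cells of the 2 libraries.

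The other genes were less uniform against mock. Fosb was higher in CD8 T cells of both virus libraries, by log2 ratios of 0.49 (0.34 to 0.64) for AAV-sgBaat and 1.04 (0.91 to 1.16) for AAV-sgSCR (-0.15 for AAV-sgBaat at 2500 to 5000 UMIs), and lower in plasmacytoid dendritic cells of both, by -1.40 (-1.67 to -1.14) and -1.45 (-1.65 to -1.26). In NK and ILC1 cells Fosb was on opposite sides of mock, at -0.36 (-0.52 to -0.20) in AAV-sgBaat, against 0.32 (0.21 to 0.44) in AAV-sgSCR. Jun was above mock by its interval in 3 of 6 AAV-sgBaat lineages, with 0.38 (0.26 to 0.49) in NK and ILC1 cells and 0.30 (0.15 to 0.44) in B cells, against AAV-sgSCR values of -0.07 (-0.18 to 0.04) and -0.04 (-0.16 to 0.07). Atf3 was above mock in AAV-sgBaat CD8 T cells, at 2.41 (1.58 to 3.32), and below it in B cells, at -1.27 (-2.28 to -0.42) (0.68 under the stricter filter), with -2.66 (-3.79 to -1.72) for AAV-sgSCR B cells. Fos was lower than mock in 7 of 7 AAV-sgSCR lineages with every interval below 0, and in AAV-sgBaat the interval was below 0 in 3 of 6. With mixed-lineage barcodes kept, Fos in CD8 T cells was above mock in both, at 0.67 for AAV-sgBaat and 0.24 for AAV-sgSCR on the log2 scale.

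Counted at 2-fold, AAV-sgBaat over mock had 1 higher and 0 lower of 10 (7.89% and 4.56% of all genes) in CD8 T cells and 0 higher and 2 lower of 10 (8.9% and 7.97% of all genes) in other T cells. NK and ILC1 cells had 0 higher and 3 lower of 10 (2.73% and 11.6% of all genes) and B cells 0 higher and 2 lower of 10 (11.4% and 5.68% of all genes). The counts were larger in Vpreb3 B cells, 1 higher and 5 lower of 10 (10.7% and 11.8% of all genes), and plasmacytoid dendritic cells, 0 higher and 6 lower of 10 (7.05% and 13.7% of all genes). AAV-sgSCR over mock had 1 higher and 2 lower of 10 (11.6% and 4.34% of all genes) in CD8 T cells, 0 higher and 2 lower of 10 (4.5% and 6.04% of all genes) in CD4 T cells and 0 higher and 4 lower of 10 (4.23% and 4.9% of all genes) in other T cells. In CD4 T cells Atf3 had 2 UMIs in AAV-sgSCR, against 19 in mock, a log2 ratio of -1.48 (-4.63 to 0.57), and is not among the 2, since counts under 3 were set to 3 for these numbers. NK and ILC1 cells had 0 higher and 5 lower of 10 (3.29% and 8.59% of all genes) and B cells 0 higher and 3 lower of 10 (3.85% and 3.82% of all genes). Again Vpreb3 B cells, with 0 higher and 6 lower of 10 (10.8% and 10.8% of all genes), and plasmacytoid dendritic cells, with 0 higher and 8 lower of 10 (9.61% and 9.41% of all genes), had the most. The share of members at least 2-fold lower was above that of all genes in every lineage of both comparisons except AAV-sgBaat CD8 T cells. Of the other early response genes in CD8 T cells, 4 of 22 measured genes were higher and 18 lower (median log2 ratio -0.52) in AAV-sgBaat than in mock. For AAV-sgSCR over mock 4 of 23 measured genes were higher and 19 lower (median log2 ratio -0.64) in CD8 T cells, and 2 of 22 measured genes were higher and 20 lower (median log2 ratio -0.71) in B cells. These list counts are not set against the share of all genes higher or lower than mock.

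**Figure D4:**
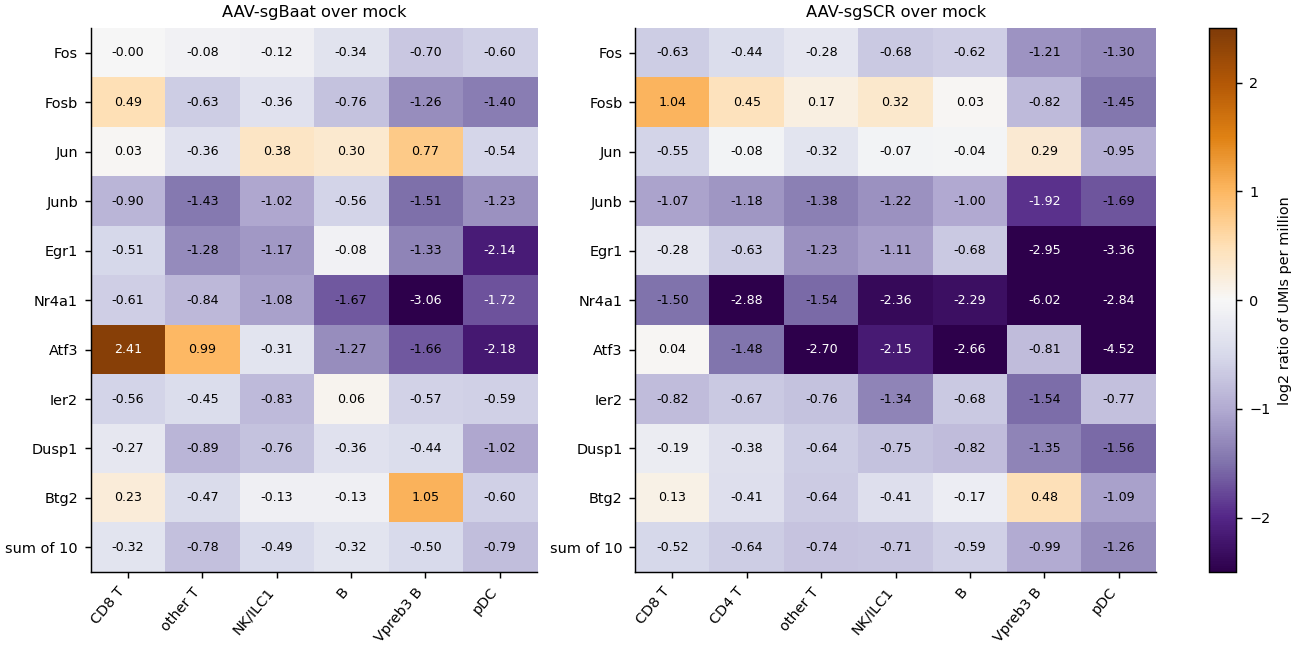
Log2 ratio of CPM over mock for each of the 10 genes and their sum (rows), AAV-sgBaat in 6 lineages on the left and AAV-sgSCR in 7 on the right; colours saturate at 2.5 either way. The Junb and Nr4a1 rows are negative in every column of both panels, with Nr4a1 in Vpreb3 B cells at -3.06 for AAV-sgBaat and -6.02 for AAV-sgSCR, while Fosb in CD8 T cells is at 0.49 and 1.04.

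The summed level of neutrophils was 8913 (8717 to 9112) CPM in 267 AAV-sgBaat barcodes, against 9961 (9839.5 to 10084) in 575 AAV-sgSCR barcodes. Fos had 1754 CPM in AAV-sgBaat, against 2281 in AAV-sgSCR, a log2 ratio of -0.38 (-0.46 to -0.30). Dusp1 was the larger contrast, as given above. Atf3 had 82.6 CPM in AAV-sgBaat, against 29.97 in AAV-sgSCR. Nr4a1 had 166 CPM in AAV-sgBaat, against 100.03 in AAV-sgSCR, a log2 ratio of 0.73 (0.43 to 1.03). Neutrophils of AAV-sgBaat were therefore lower for Fos and Dusp1 and higher for Atf3, Nr4a1 and Btg2, the last at -0.01 with mixed-lineage barcodes kept. Immature, granule-rich neutrophils had a lower summed level in both libraries, 3642 CPM in AAV-sgBaat, against 4041 in AAV-sgSCR. In them Fos was at -0.33 (-0.44 to -0.23), Fosb at -0.56 (-0.80 to -0.33) and Dusp1 at -0.58 (-0.76 to -0.40) on the log2 scale of AAV-sgBaat over AAV-sgSCR.

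Read per cell after each barcode was thinned to 1000 UMIs, which sets depth equal, the shares in CD8 T cells kept the order of the levels for Fosb and Junb. For Fos, whose level was the same in AAV-sgBaat and mock, the share was larger in AAV-sgBaat. A Fos UMI was found in 32.4% (29.0 to 35.9) of AAV-sgBaat CD8 T cells, 20.1% (18.3 to 22.1) of AAV-sgSCR and 27.6% (23.9 to 31.5) of mock. Unthinned, the shares were 56.6%, 53.1% and 66.4%, with median depths of 3644, 4910 and 5816.5 UMIs. For Fosb the thinned shares were 22.6% (19.6 to 25.8) in AAV-sgBaat, 28.6% (26.5 to 30.8) in AAV-sgSCR and 14.1% (11.3 to 17.3) in mock, and unthinned 47.6%, 61.6% and 34.8%. The Fosb difference thus lay in how many cells had a UMI as well as in the summed level. Junb was found in 49.4% (45.7 to 53.1), 47.1% (44.7 to 49.5) and 69.3% (65.3 to 73.1) of CD8 T cells in AAV-sgBaat, AAV-sgSCR and mock, and unthinned in 77.7%, 85.0% and 96.6%. At least 3 of the 10 genes were found in 36.1% (32.6 to 39.6), 31.1% (28.9 to 33.3) and 39.7% (35.6 to 43.9) of thinned CD8 T cells and in 72.5% (66.2 to 78.2), 67.3% (61.2 to 73.0) and 83.8% (80.4 to 86.8) of NK and ILC1 cells, in the same order. Mock had the largest share with 3 genes in both lineages. In neutrophils the share with 3 genes was 77.2% (71.6 to 82.1) in AAV-sgBaat, against 86.8% (83.7 to 89.4) in AAV-sgSCR. Dusp1 was found in 46.8% (40.7 to 53.0) of AAV-sgBaat and 71.1% (67.2 to 74.8) of AAV-sgSCR neutrophils after thinning, and in 73.4% and 92.3% unthinned.

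The inducible heat shock genes Hspa1a and Hspa1b, which tissue handling is also known to induce, differed between the libraries. Hspa1a, an inducible HSP70 chaperone, had 77.9 CPM in AAV-sgBaat, against 4.65 in AAV-sgSCR CD8 T cells, a log2 ratio of 4.06 (3.60 to 4.56), and its near-identical copy Hspa1b, whose reads the counting could split from it, was at 3.96 (3.52 to 4.43). Barcodes with an Hspa1a or Hspa1b UMI were 26.0%, 3.61% and 4.51% of CD8 T cells in AAV-sgBaat, AAV-sgSCR and mock, 20.1%, 2.69% and 3.17% of NK and ILC1 cells, 26.3%, 4% and 5.63% of B cells, and 44.1%, 16.5% and 38.4% of classical monocytes. In neutrophils the share was 7.12% in AAV-sgBaat, against 1.39% in AAV-sgSCR. The whole heat shock list had the same order of libraries as these 2 genes in CD8 T cells. Its summed level was 3003 CPM in AAV-sgBaat, 2083 in AAV-sgSCR and 2806 in mock. Hspa1a and Hspa1b together had 158, 9.82 and 11.8 CPM in that order. Mock thus lay near AAV-sgBaat for the list and near AAV-sgSCR for the 2 genes. Within CD8 T cells that had such a UMI the summed immediate early level was 3551, 2908 and 4611 CPM in AAV-sgBaat, AAV-sgSCR and mock. In CD8 T cells without one it was 2642, 2521 and 3583 CPM. The CD8 T cells with such a UMI had the higher sum in each library, which was not so in every lineage. In AAV-sgBaat plasmacytoid dendritic cells the sum was 2673 CPM with and 3175 without, in AAV-sgBaat immature neutrophils 2598 and 3712, in AAV-sgBaat basophils and mast cells 10676 and 16812, and in AAV-sgSCR other T cells 3233 and 4064. Without those barcodes the CD8 T cell log2 ratio of AAV-sgBaat over AAV-sgSCR was 0.07, against 0.19 over all. The part of handling in either group of genes was not tested.

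Depth also moved with the sum. In CD8 T cells of 1000 to 2500 UMIs it was 3387 CPM in AAV-sgBaat, against 4238 in AAV-sgSCR. At 2500 to 5000 UMIs it was 3345, 2989.6 and 4762 CPM in AAV-sgBaat, AAV-sgSCR and mock, and at 5000 UMIs or more 2337, 2266 and 3386. Deeper barcodes had a smaller share of these RNAs, mock was highest in both depth ranges measured in all 3 libraries, and the order of AAV-sgBaat and AAV-sgSCR turned in the shallowest range. Neutrophils had 12744 and 17890 CPM in the shallowest range, 8232 and 11367 in the middle one and 7344 and 7143 in the deepest, in AAV-sgBaat and AAV-sgSCR. The neutrophil difference was thus seen in the 2 shallower ranges and not in the deepest. Basophils and mast cells, which release histamine and cytokines, showed a wider range still. Over all barcodes their sum was 15320.5 CPM in 109 AAV-sgBaat barcodes (median 3013 UMIs) and 5659.8 CPM in 97 AAV-sgSCR barcodes (median 11126 UMIs). At 2500 to 5000 UMIs it was 26707 CPM in 35 AAV-sgBaat barcodes, against 28596 in 21 AAV-sgSCR barcodes. At 5000 UMIs or more it was 10355 CPM in 30 AAV-sgBaat barcodes, against 4222 in 70 AAV-sgSCR barcodes. The order of the libraries thus differed between these ranges. At 2500 to 5000 UMIs AAV-sgSCR was the higher, with an interval that met that of AAV-sgBaat, and at 5000 UMIs or more AAV-sgBaat was. Depth was not equal within the deepest range either, where the median was 10035.5 for AAV-sgBaat barcodes, against 17879.5 for those of AAV-sgSCR. The part of depth in the basophil gap over all barcodes was not tested. Mcpt8, a granule protease of basophils, was at 18389 CPM over all barcodes of AAV-sgBaat, against 3526 in AAV-sgSCR, and the proliferation marker Mki67 at 229 and 380.4 CPM.

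**Figure D5:**
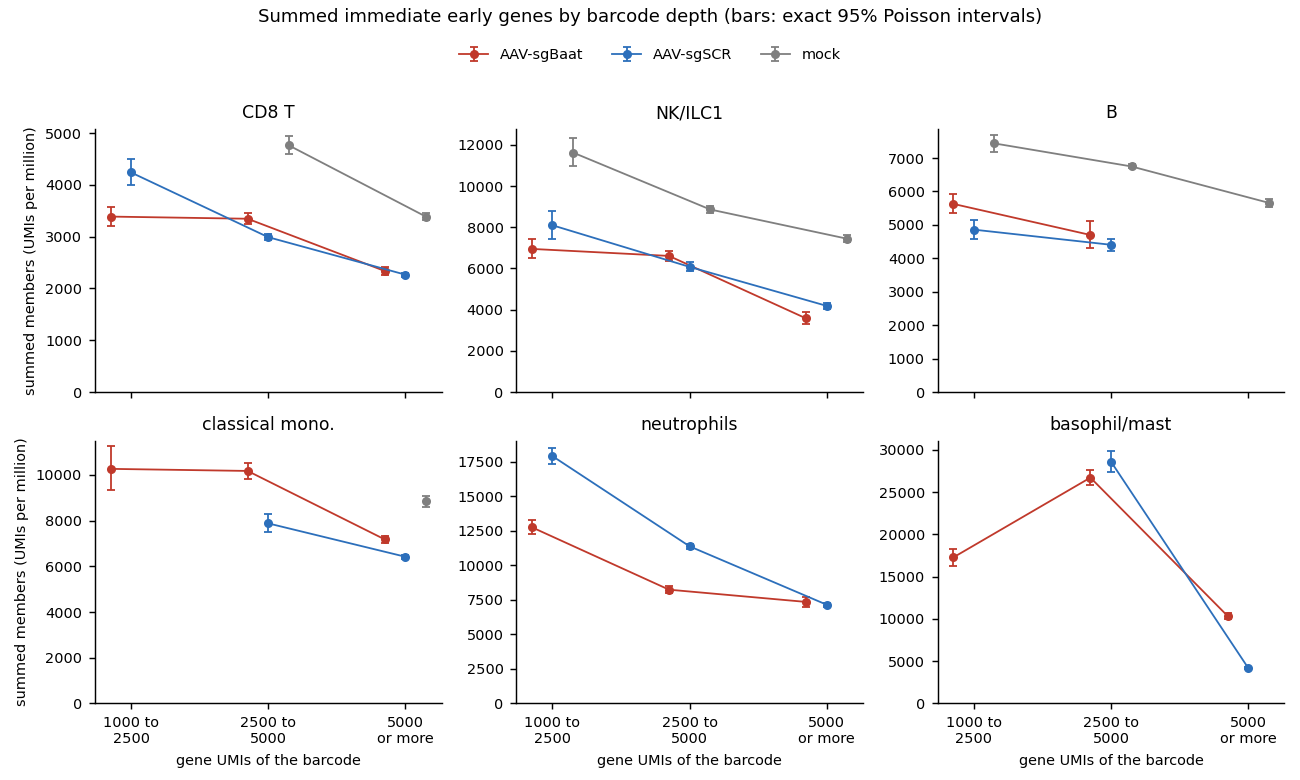
Summed level of the 10 genes (CPM, linear axes from 0) against the gene UMIs of the barcode in 3 ranges, for 6 lineages, with AAV-sgBaat, AAV-sgSCR and mock as lines and exact 95% Poisson intervals as bars; ranges of too few barcodes have no point. Neutrophils of 1000 to 2500 UMIs are at 12744 in AAV-sgBaat, against 17890 in AAV-sgSCR, and at 7344 and 7143 at 5000 UMIs or more.

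CD8 T cells carry antibody tags for the CD90 alleles, and barcodes were split by which allele's tag was the larger. CD90.1-dominant cells numbered 337 in AAV-sgBaat, 1018 in AAV-sgSCR and 12 in mock, too few there for a level, and CD90.2-dominant cells 367, 701 and 525. Fos had 354 CPM in AAV-sgBaat, against 207 in AAV-sgSCR CD90.1-dominant cells, and 429 and 334 in CD90.2-dominant cells. Its log2 ratio was 0.77 (0.61 to 0.93) and 0.36 (0.23 to 0.49) in these 2 subsets. Fosb was at -0.72 (-0.91 to -0.54) and -0.46 (-0.61 to -0.31), and Nr4a1 at 1.28 (0.58 to 1.96) and 0.43 (-0.12 to 0.96). Fos was therefore higher and Fosb lower in AAV-sgBaat in both subsets, while the Nr4a1 interval in CD90.2-dominant cells included 0. Atf3 was not alike, at 3.63 (2.85 to 4.47) in CD90.1-dominant and -0.02 (-1.32 to 1.16) in CD90.2-dominant cells, and the difference between the subsets was not tested. AAV-sgBaat had 51 and 9 Atf3 UMIs there, and 59.0% of its CD8 barcodes with Atf3 also had macrophage panel UMIs. Over mock, the summed log2 ratio of CD90.2-dominant cells was -0.18 (-0.22 to -0.13) for AAV-sgBaat and -0.32 (-0.36 to -0.28) for AAV-sgSCR. Fos in them was at 0.20 (0.06 to 0.33) and -0.16 (-0.28 to -0.05) over mock. Dusp1 was at -0.25 (-0.46 to -0.05) and -0.0015 (-0.15 to 0.15).

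Each gene's log2(CPM + 1) was centred by subtracting its lineage's mean, so that only differences between libraries remained in 26 lineage and library classes. The 8 genes of 5530 with the highest Pearson correlation with the mean of the members were then Ier5, Tapbp, Rhob, Klf6, Prdm2, Gm42418, Susd6 and Klf2, from 0.92 to 0.87. On the same centred values each member's correlation with the members' mean was 0.94 for Egr1, 0.92 for Nr4a1, 0.91 for Fos and 0.91 for Junb, against 0.50 for Btg2, 0.43 for Jun and 0.36 for Fosb. Fosb and Jun were thus the members least like the rest. Pairwise, Ier2 and Nr4a1 had 0.90 and Btg2 and Jun 0.77, while Fos and Fosb had 0.27 and Jun and Fosb -0.15. These are descriptions: the classes come from 3 libraries and share their depth and dissociation.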

How the data were processed

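Cells of mouse liver were measured by 10x 3′ single-cell RNA with antibody tags in 6 samples, of which the 3 mRNA samples hold both kinds of count. The deposited values are raw UMI counts per gene and barcode from filtered matrices, made with Cell Ranger 6.0.1 per the file headers against mm10 per the submitters' processing notes. Antibody counts of CD90.1 and CD90.2 were read from the same deposited matrices. The 10 genes and the gene lists were chosen with earlier results of these data known, and lists are described by counts and medians only. Barcodes needed at least 500 genes, 1000 gene UMIs and at most 10% mitochondrial UMIs. Lineages were called from minimum UMIs of marker panels, with the minimums set after the data were seen, and barcodes that met panels of several lineages were left out in place of a doublet caller. Scrublet (scanpy 1.11.5) was an alternative and removed 403, 430 and 295 barcodes in AAV-sgBaat, AAV-sgSCR and mock.

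Counts were summed by library and lineage and scaled to 1000000 gene UMIs (CPM). Intervals were exact Poisson for CPM, exact conditional binomial for ratios and Clopper-Pearson for shares, at 95%, with scipy 1.17.1, numpy 2.4.6 and pandas 2.3.3 under Python 3.11.15. Molecules of 1 cell are not independent, so intervals and floors cover counting error only. A gene was measured in a comparison with at least 20 UMIs over both libraries, and counts under 3 were set to a floor of 3 in the numbers of genes at least 2-fold apart and in list medians, but not in the ratios of single genes. All 10 genes are named by rule, with 14 genes of the lists, of which those with enough UMIs in CD8 T cells are given, and the 8 genes most like the members' mean among those of at least 20 CPM, after centring on each lineage. The same ranking without centring is not reported here. Thinning drew 1000 UMIs per cell with a fixed seed. CD8 T cells were split by the larger CD90 tag among barcodes with at least 100 tag UMIs. The ratio computation was tested on simulated data. Alternatives were other barcode filters, mixed barcodes kept, doubled panel minimums, thinning, mitochondrial and ribosomal genes left out of the total, equal weight per cell, Scrublet, and barcodes without heat shock UMIs. Each group is 1 library, so no p-value was computed.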

Additional observations from a re-analysis of the deposited data

Results flagged for a closer look

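Several genes differed in opposite directions between lineages in AAV-sgBaat over AAV-sgSCR, with intervals of counting error on opposite sides of 0. Fos was at -0.38 on the log2 scale in neutrophils and 0.70 in plasmacytoid dendritic cells. Jun was at -0.12 in immature neutrophils and 0.58 in CD8 T cells. Junb was at -0.35 in immature neutrophils and 0.46 in plasmacytoid dendritic cells. Dusp1 was at -0.83 in neutrophils and 0.91 in Vpreb3 B cells. With 1 library per group the difference between lineages was not tested for any of the 4 genes.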

How the results depend on the processing

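The summed log2 ratio of AAV-sgBaat over AAV-sgSCR moved by more than its counting error under the following choices. A stricter barcode filter gave 0.16 in CD8 T cells, -0.077 in B cells, 0.12 in Vpreb3 B cells, 0.68 in plasmacytoid dendritic cells, -0.28 in neutrophils and -0.20 in immature neutrophils. Keeping mixed-lineage barcodes gave 0.25 in classical monocytes, -0.38 in neutrophils and -0.26 in immature neutrophils. Doubled panel minimums gave 0.31 in CD8 T cells, 0.20 in classical monocytes, 0.64 in plasmacytoid dendritic cells and -0.24 in neutrophils. Thinning gave 0.24 in CD8 T cells, -0.16 in other T cells, 0.25 in classical monocytes, -0.28 in neutrophils and -0.22 in immature neutrophils. Equal weight per cell gave -0.16 in other T cells, 0.11 in NK and ILC1 cells, 0.57 in plasmacytoid dendritic cells and -0.27 in neutrophils. Scrublet gave 0.24 in CD8 T cells, and a total without mitochondrial and ribosomal genes -0.11 in other T cells. Barcodes without heat shock UMIs gave 0.068 in CD8 T cells, -0.20 in other T cells and 0.56 in plasmacytoid dendritic cells. CD90.1-dominant and CD90.2-dominant CD8 T cells each gave 0.14. Added after the data were seen, barcodes of 2500 to 5000 UMIs gave -0.10 in other T cells, 0.12 in NK and ILC1 cells, 0.093 in B cells, -0.0045 in Vpreb3 B cells, 0.37 in classical monocytes, 0.84 in plasmacytoid dendritic cells, -0.47 in neutrophils and 0.031 in immature neutrophils. Barcodes without a monocyte and macrophage panel UMI, also added then, gave 0.13 in CD8 T cells and -0.089 in other T cells. The cause of these moves was not tested.

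Only Atf3 had a 2-fold difference that turned round, all from few UMIs. AAV-sgBaat over AAV-sgSCR was -0.024 in B cells with mixed-lineage barcodes kept and -0.96 in immature neutrophils under the stricter filter. AAV-sgBaat over mock was 0.68 in B cells under the stricter filter and 0.097 at 2500 to 5000 UMIs. AAV-sgSCR over mock was 1.497 in CD4 T cells after thinning and 1.41 in other T cells with mixed-lineage barcodes kept. Junb against mock kept its sign in 64 AAV-sgBaat and 75 AAV-sgSCR combinations of lineage and choice, and Nr4a1 in 63 and 74. In AAV-sgBaat over AAV-sgSCR, Fosb changed sign in 1 of 95 and Fos in 4 of 95. Unthinned, at least 3 of the genes were found in 78.5%, 87.4% and 94.8% of CD8 T cells and in 91.3%, 96.9% and 100% of NK and ILC1 cells of AAV-sgBaat, AAV-sgSCR and mock, and in 96.3% and 100% of AAV-sgBaat and AAV-sgSCR neutrophils. No paired analysis was possible because each group is 1 library, and no library could be left out for the same reason. Depth limits Atf3 in lymphocytes and Nr4a1 in Vpreb3 B cells. In AAV-sgBaat only 36 B cells and 31 Vpreb3 B cells had 2500 to 5000 UMIs. The stricter filter left 27 AAV-sgBaat and 55 AAV-sgSCR B cells. It also asks for at most 5% mitochondrial UMIs, and the median share of AAV-sgSCR B cells was 5.8%.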
